A study of Mus musculus with 9 samples.

Results

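The genes described here are 6 chemokines that bone-forming cells are known to make: Cxcl1, Cxcl5, Cxcl10, Cxcl12, Ccl2 and Ccl7. They were taken by gene symbol alone, as every probe set of the array that the platform annotation assigns to one of them. This gave 9 of the 12488 probe sets, covering all 6 of these genes among the 8251 genes with a symbol of their own. Cxcl12 was represented by 3 probe sets, Cxcl1 by 2 and the other 4 genes by 1 each.

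The values are intensities from 1-colour arrays of total RNA from OB-6, a mouse osteoblastic cell line. Cells were taken at the basal level (0 min) or after 30 or 60 min of parathyroid hormone (PTH), with 3 arrays (replicates a, b and c) at each time and 9 in all. The groups share the cell line and differ, by their labels, only in the time of PTH; no source used here gives the PTH dose or how the cells were grown, and cells held as long without PTH were not analysed here. The labels do not say that the replicates were separate cultures, so the error behind each p-value is that between arrays and may be technical only, and the small number of arrays limits the precision.

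Chemokines are small secreted proteins that bind G-protein-coupled receptors on leukocytes and draw those cells along a gradient. They are named for the spacing of their first cysteines, CC where these are adjacent and CXC where a residue separates them. Cxcl1 and Cxcl5 attract neutrophils through Cxcr2, Ccl2 and Ccl7 attract monocytes, including osteoclast precursors, through Ccr2 and related receptors, Cxcl10 is an interferon-induced ligand of Cxcr3, and Cxcl12 holds haematopoietic stem cells in the marrow through Cxcr4. In many cells Cxcl1 and Ccl2 are early targets of NF-kappaB, a transcription factor held in the cytoplasm by inhibitors of the I-kappaB family.

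All 9 arrays had deposited intensities scaled to a common trimmed mean. At 60 min their upper range lay higher, with 99th percentiles of 3852 to 4722 against 3474 to 3606 at 0 min, and replicate b of that time was the least like the others: its correlations with them had a median of 0.938, where the other 8 arrays had 0.954 to 0.967. Of the 12 osteoblastic markers Runx2, Sp7, Bglap and Spp1 had no probe set, and 7 of the 8 with a probe set were bright enough to be tested. The summed intensity of the 8 was 18752 to 20180 at 0 min, 18483 to 19922 at 30 min and 19899 to 24119 at 60 min. The larger part of it came from the matrix genes Col1a1, Col1a2, Sparc and Bgn. The marker too dim to be tested was Pth1r, the PTH receptor, at 15.7 ± 8.81, 34.5 ± 6.88 and 23.5 ± 12.2 (mean ± SD of 3 arrays). Among the 7, Omd, a small proteoglycan of bone, fell by 1.93 on the log2 scale at 60 min (limma adjusted p = 0.0145), and the collagen gene Col1a1 rose by 0.56 (0.0499) by its brighter probe set, with 0.08 (0.692) by the other. The call of Omd was lost without 0 min replicate a or b (0.0677 and 0.0605), and that of Col1a1 in 6 of 10 other settings and without 7 of the 9 arrays taken singly (up to 0.170). Leaving out a 0 min array also lowered the count of calls over all tested probe sets, as given below for Cxcl1. Of 12 macrophage and myeloid markers 6 were too dim to be tested (Ptprc, Itgam, Adgre1, Lyz2, Fcgr3 and Tyrobp) and 6 were tested (Cd14, Cd68, Csf1r, Laptm5, Spi1 and Cd52). The brightest was Cd14, at 976 ± 81.7, 1050 ± 71.2 and 1188 ± 206 at the 3 times, and the summed intensity of the 12, of which Cd14 was the larger part, was 1387 to 1546, 1514 to 1685 and 1507 to 1880. All 7 endothelial markers were too dim, with sums of 69.3 to 84.4, 72.6 to 109 and 122 to 140.3, highest on the 60 min arrays. Of 5 adipocyte markers 3 were too dim, and the sums were 182 to 194, 164 to 197 and 169 to 195. The part of these differences in the results below was not tested.

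Cxcl1 was the chemokine with the clearest change. Its brighter probe set, 95348_at, read 3838, 3891 and 3288 on the 0 min replicates a, b and c. It read 4656, 5469 and 5181 on the 30 min replicates and 5364, 4881 and 4973 on the 60 min replicates. Every array with PTH therefore lay above every array without it, and the arrays at 30 and 60 min overlapped. The second probe set, 95349_g_at, which the platform annotation ties to the same source sequence, read 2065, 2132 and 1934 at 0 min. It read 2792, 2748 and 2558 at 30 min and 2955, 2753 and 2499 at 60 min. The 2 probe sets thus gave the same pattern, but as they share a target they are not independent measurements.

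At 60 min Cxcl1 rose 1.38-fold by 95348_at. Its mean intensity was 3672 ± 334 at 0 min and 5073 ± 256 at 60 min (± SD, n = 3), the log2 fold change 0.47, the standard error (SE) 0.10 and the limma adjusted p 0.0173. All fold changes refer to log2(intensity + 11.8), and a probe set was called changed at an adjusted p under 0.05 over all 7884 probe sets tested. By 95349_g_at the rise was 1.33-fold, the means being 2044 ± 101 and 2736 ± 229 and the log2 fold change 0.42 (SE 0.09, limma adjusted p = 0.0221). These were the only calls among the 8 chemokine probe sets tested, 2 higher and 0 lower, where 4.35% of all tested probe sets were called higher and 8.73% lower. The 2 share a target. Of the 393 tested probe sets with a mean intensity over 2000, the range of both, 16.5% were called higher and 3.31% lower. Of the 8 chemokine probe sets 4 had no overlap between the arrays of 60 and 0 min, the 2 of Cxcl1 higher and 1 each of Cxcl5 and Cxcl12 lower, where 40.7% of all tested probe sets had none in either direction.

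Almost the whole difference of Cxcl1 was present at 30 min, where it did not pass the threshold. The mean intensity was 5102 ± 412 by 95348_at, a log2 fold change of 0.47 with a 95% interval of 0.26 to 0.69 and a limma adjusted p of 0.0535. By 95349_g_at it was 2699 ± 124, a log2 fold change of 0.40 with an interval of 0.19 to 0.61 and a limma adjusted p of 0.0774. No chemokine probe set of the 8 was called at 30 min, against 0.939% of all tested probe sets. The unadjusted limma p of these 2 probe sets was 0.000566 and 0.00148, and the 3 arrays lay wholly above those of 0 min for both, as for 15.3% of all probe sets tested. From 30 to 60 min the log2 fold change was -0.01 (95% interval -0.22 to 0.21) and 0.02 (-0.19 to 0.23). In the F test of limma over the 3 times both passed, with adjusted p of 0.0325 and 0.0427, where 4.64% of all tested probe sets passed.

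The call of Cxcl1 at 60 min rested on all 3 basal arrays, as did most calls over all tested probe sets. Their count fell from 1031 to 77, 107 and 259 without 0 min replicate a, b and c, so this loss is not particular to Cxcl1. Without 0 min replicate a, b or c the limma adjusted p was 0.0668, 0.0598 and 0.0689 by 95348_at and 0.0843, 0.0718 and 0.0812 by 95349_g_at, with log2 fold changes between 0.38 and 0.51. Without 1 of the 6 arrays with PTH it remained below the threshold, between 0.0139 and 0.0409. At 30 min both probe sets passed without 60 min replicate b, at 0.0192 and 0.0268, and 95348_at also without 30 min replicate a, at 0.0248.

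**Figure D1:**
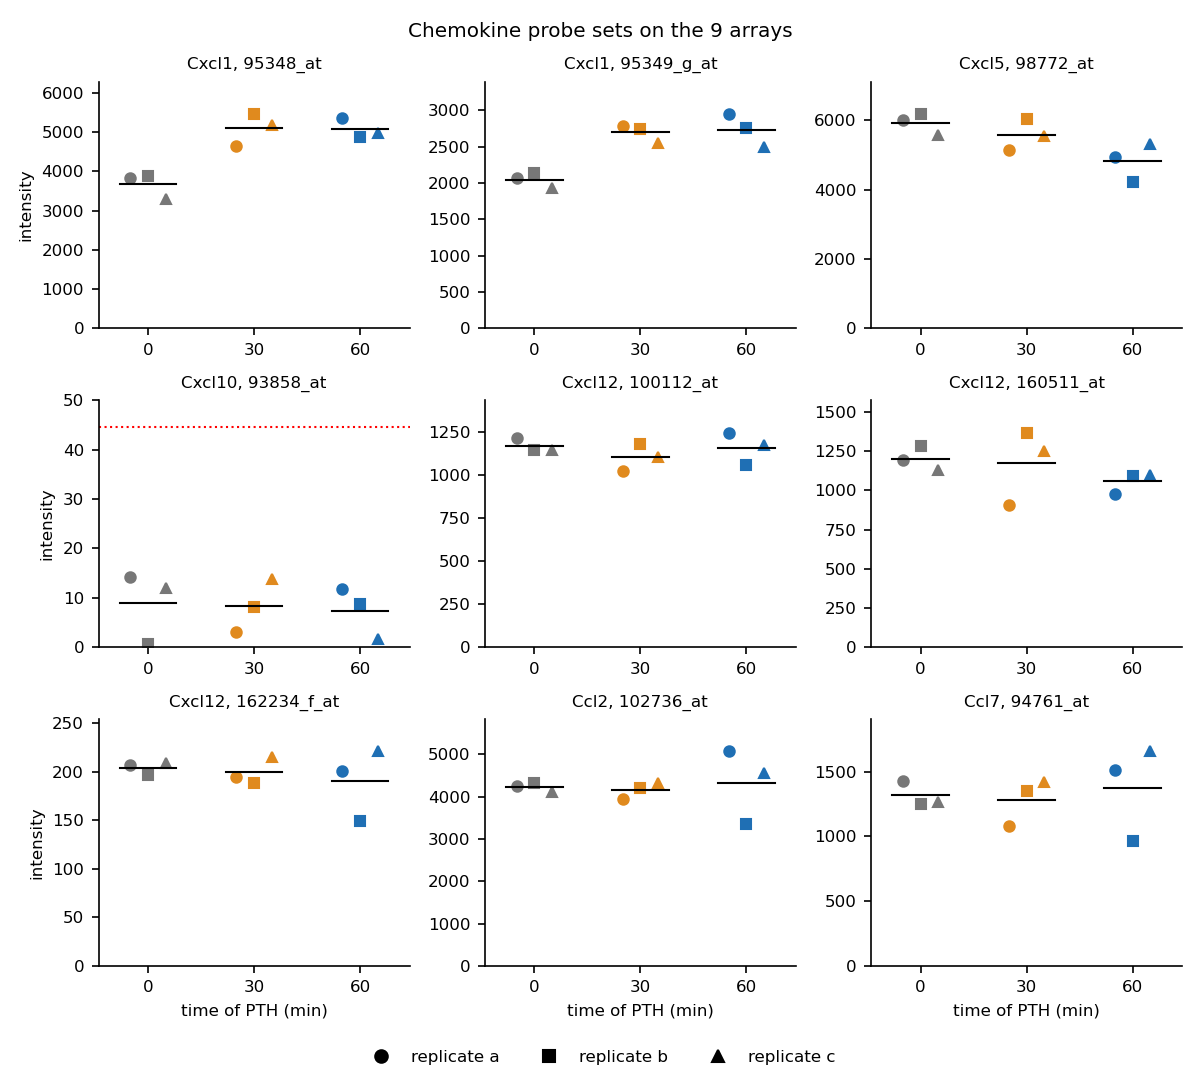
Intensity (linear axis from 0) of the 9 chemokine probe sets on each array against time of PTH in min; symbols mark replicates a, b and c, bars the mean of 3 arrays, and the dotted line for Cxcl10 the filter threshold of 44.69. Both Cxcl1 probe sets lie higher on all 6 arrays with PTH, Cxcl5 lies lower on the 3 arrays at 60 min, and Cxcl10 stays between 0.700 and 14.1.

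The reference table of promoters, from RefSeq on mouse assembly GRCm38.p6, held 3 of the 6 genes: Cxcl1, the member that rose, Cxcl12, which was bright and had no probe set past the threshold, and Cxcl10, which was at background. They are shown to set the letters upstream of the gene called here beside those of the other 2 genes in that table. Each line gives the 250 bases before the annotated start, 5′ to 3′ on the strand of the gene. Capitals mark a wide form of the kappaB site (GGG, any 5 bases, CC), TGACG (the core of the cAMP response element) and TGANTCA (the AP-1 site) on either strand, where N is any base and overlapping matches run together. The windows are chr5:90890995-90891244 (+ strand) for Cxcl1, chr5:92348890-92349139 (- strand) for Cxcl10 and chr6:117168285-117168534 (+ strand) for Cxcl12.
Cxcl1: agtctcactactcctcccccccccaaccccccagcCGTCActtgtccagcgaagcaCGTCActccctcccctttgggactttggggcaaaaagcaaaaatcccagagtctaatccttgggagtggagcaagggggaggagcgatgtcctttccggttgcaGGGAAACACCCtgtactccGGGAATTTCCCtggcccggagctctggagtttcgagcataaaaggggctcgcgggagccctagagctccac
Cxcl10: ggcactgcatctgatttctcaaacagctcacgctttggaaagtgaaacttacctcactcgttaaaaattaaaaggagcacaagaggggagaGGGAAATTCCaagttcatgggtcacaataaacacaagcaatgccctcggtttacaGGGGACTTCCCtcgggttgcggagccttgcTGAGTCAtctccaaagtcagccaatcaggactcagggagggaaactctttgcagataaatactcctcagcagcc
Cxcl12: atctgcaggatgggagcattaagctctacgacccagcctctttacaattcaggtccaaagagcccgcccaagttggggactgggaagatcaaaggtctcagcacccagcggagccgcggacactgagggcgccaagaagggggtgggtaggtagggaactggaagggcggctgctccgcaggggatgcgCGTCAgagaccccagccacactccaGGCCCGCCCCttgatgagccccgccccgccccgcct

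A narrower kappaB form (GGG, any 2 bases, TTT, CC), which the wide form includes, was found at 2 places in the Cxcl1 window. They were bases -71 to -62, where -1 is the last base before the start, and, on the other strand, bases -89 to -80. Of all 32851 promoter windows, 1.41% held at least 1 match of this form and 0.0244% at least 2. Neither Cxcl10 nor Cxcl12 held it. The Cxcl10 window held GGGAAATTCC at -159 to -150 and GGGGACTTCC at -104 to -95, each 1 base from this form. Absence of the narrower form is therefore not absence of a kappaB site, and such sites are not shown to be particular to Cxcl1. The wide form, added after the sequences had been seen, was found in all 3 windows and in 45.8% of all windows, so it does not set them apart. TGACG occurred 2 times for Cxcl1, at -215 to -211 and -194 to -190, and 1 time for Cxcl12, at -61 to -57, and in 17.8% of all windows. The full cAMP response element TGACGTCA (1.55% of all windows) and the TATA box form TATAAA (12.4%) occurred in none of the 3, and TGANTCA (6.75%) only in Cxcl10. The Cxcl1 window held CATAAA and the Cxcl10 window GATAAA, each 1 base from TATAAA. Absence of the exact letters is therefore not absence of a TATA box. Such matches describe letters in this window and are no evidence that a factor was bound in these cells.

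Cxcl5, the other Cxcr2 ligand with a probe set bright enough to be tested, did not follow Cxcl1. Its probe set 98772_at read 6022, 6195 and 5584 on the 0 min replicates a, b and c. It read 5152, 6030 and 5553 at 30 min and 4953, 4223 and 5308 at 60 min. The arrays at 30 min overlapped both neighbours, and those at 60 min all lay below those at 0 min. The mean was 5934 ± 315, 5578 ± 439.5 and 4828 ± 553 at the 3 times. At 60 min the log2 fold change was -0.30 (SE 0.10) with a 95% interval of -0.53 to -0.07, and the limma adjusted p of 0.0748 missed the threshold. At 30 min it was -0.09 (-0.32 to 0.14, limma adjusted p = 0.652). On 0 min replicate a this intensity was the highest of all 12488 on the array. No saturation flag was among the values used, and a limit at the top of the measured range was not tested.

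Within each array Cxcl1 was set against Cxcl5, a ratio that 1 factor for a whole array leaves nearly as it is. The pair was chosen after the values were seen, 1 gene being higher and the other lower with PTH, so the ratio is a description and no test of it is given. Intensities of different probe sets do not compare transcript levels, so only its change between times is read. The log2 ratio of 95348_at to 98772_at was -0.65, -0.67 and -0.76 on the 0 min replicates a, b and c. It was -0.15, -0.14 and -0.10 at 30 min and 0.11, 0.21 and -0.09 at 60 min. The 3 times did not overlap, and both steps went the same way. The ratio was 1.48-fold higher at 30 min and 1.70-fold higher at 60 min than at 0 min, by 0.56 and 0.77 on the log2 scale. With 95349_g_at the differences were 0.49 and 0.72, without overlap with 0 min but with overlap between 30 and 60 min. Against Ccl2 the log2 ratio of 95348_at was -0.21 ± 0.10, 0.29 ± 0.07 and 0.25 ± 0.25 at the 3 times, and against Cxcl12 (160511_at) it was 1.60 ± 0.07, 2.13 ± 0.19 and 2.25 ± 0.16 (SD, n = 3). In both the arrays with PTH lay above those without it, and 30 and 60 min overlapped. The 60 min difference of the first ratio lay between 0.70 and 0.85 with 1 array left out.

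**Figure D2:**
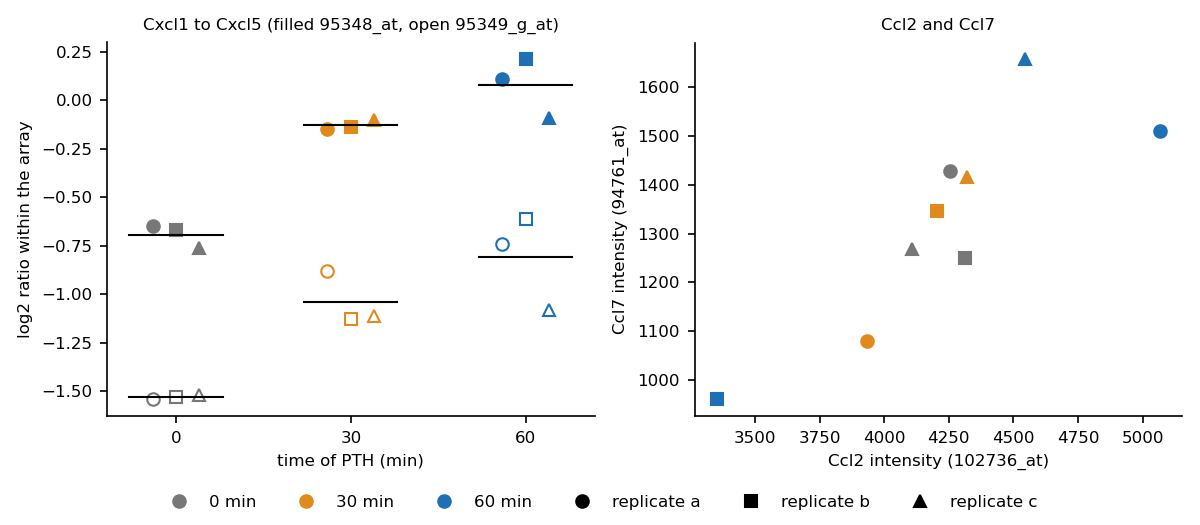
Left, log2 ratio of Cxcl1 to Cxcl5 within each array against time of PTH in min, with bars for the mean of 3 arrays; right, Ccl7 against Ccl2 intensity, 1 point per array, on axes that do not start at 0. The filled points rise from -0.69 at 0 min to -0.13 and 0.08, and Ccl2 and Ccl7 are both lowest on 60 min replicate b.

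How Cxcl1 and Cxcl5 were called at 60 min depended on the scaling between arrays. Bright probe sets as a class read higher at 60 min in the deposited values. The 393 tested probe sets with a mean intensity over 2000, the range of both genes, had a median log2 fold change of 0.25 at 60 min, and 65 of them were called higher and 13 lower. At 30 min their median was 0.06. Quantile normalization and cyclic loess brought the 60 min median of this class to 0.04 and 0.05. Under them the Cxcl1 probe set 95348_at stood at 0.20 and 0.24 (limma adjusted p = 0.285 and 0.138) and 95349_g_at at 0.30 and 0.24 (0.0540 and 0.120), none past the threshold. Cxcl5 in turn passed it, at -0.51 and -0.55 (0.0241 and 0.0175). Scaling to the 75th percentile left Cxcl1 called, at 0.54 and 0.48, and Cxcl5 uncalled, at -0.23. The ratio of the 2 genes moved little, with a 60 min difference of 0.71 after quantile normalization, 0.79 after cyclic loess and 0.77 as deposited. Both genes lie in the bright class that these 2 normalizations lowered together at 60 min, so the steadiness of the ratio is no evidence for it. At 30 min the fold change of Cxcl1 was less affected, at 0.43 and 0.42 by 95348_at after these 2 normalizations against 0.47 as deposited.

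**Figure D3:**
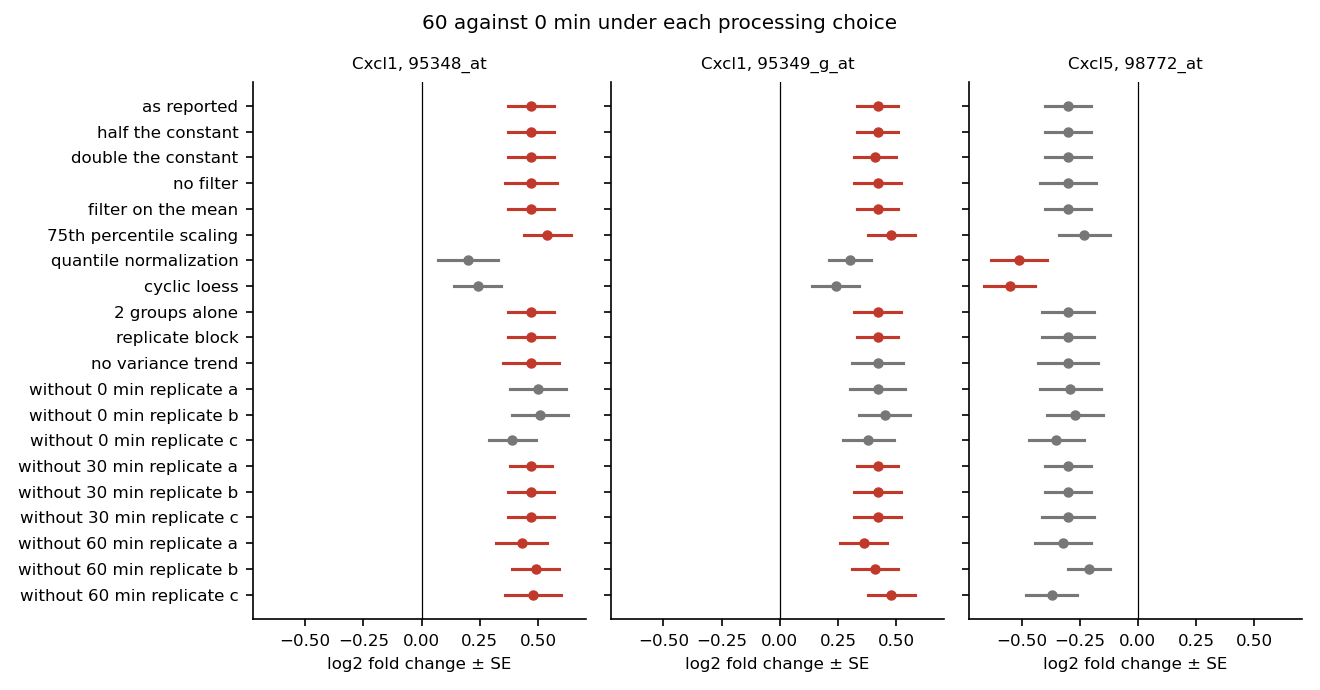
Log2 fold change at 60 against 0 min, with its standard error, of both Cxcl1 probe sets and of Cxcl5 under the reported setting, 10 other processing choices and 9 fits with 1 array left out; red marks a limma adjusted p under 0.05. After quantile normalization and cyclic loess all 3 probe sets lie lower than as deposited (0.20 and 0.24, 0.30 and 0.24, and -0.51 and -0.55), with neither Cxcl1 probe set called and Cxcl5 called.

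Ccl2 and Ccl7, the monocyte attractants, are neighbouring genes on mouse chromosome 11 in the RefSeq table. The Ccl2 probe set 102736_at read 4255, 4312 and 4107 on the 0 min replicates, 3932, 4205 and 4321 at 30 min and 5067, 3352 and 4545 at 60 min. The 60 min arrays held both the highest and the lowest value of all 9, and no pair of times was separated. The log2 fold change was -0.03 at 30 min (95% interval -0.32 to 0.27) and 0.01 at 60 min (-0.28 to 0.31), with limma adjusted p of 0.934 and 0.962. The Ccl7 probe set 94761_at read 1428, 1251 and 1269 at 0 min, 1079, 1347 and 1417 at 30 min and 1511, 961 and 1657 at 60 min. Its fold changes were -0.05 (-0.46 to 0.37) and 0.03 (-0.39 to 0.44), with adjusted p of 0.914 and 0.935. At 60 min the 95% interval of the change ran from -17.8% to 23.6% for Ccl2 and from -23.5% to 36.0% for Ccl7.

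For both genes the lowest value of the 9 arrays was 60 min replicate b, the array that stood apart. Without it the 60 min difference was 0.18 for Ccl2 and 0.27 for Ccl7, neither past the threshold. The coefficient of variation (SD over mean) at 60 min was 20.3% for Ccl2 and 26.7% for Ccl7, against 2.50% and 7.40% at 0 min. Over the 9 arrays the log2 values of the 2 genes were correlated, with a Pearson r of 0.87 (exact permutation p = 0.00218, 0.0218 adjusted over the 10 pairs of the 5 tested chemokines) and a Spearman rho of 0.85 (exact permutation p = 0.00607, adjusted 0.0304). The r was 0.91 without the 2 arrays furthest from the median of Ccl2, 0.75 without 60 min replicate b and 0.87 for the deviations from the mean of each time. Such shared deviations also occurred elsewhere, with an r of 0.85 between the deviations of Cxcl5 and Ccl7 and 0.76 between those of Cxcl5 and Ccl2, pairs whose r over all arrays was 0.47 and 0.43 (exact permutation p = 0.2 and 0.231, adjusted 0.577 for both). Cxcl5 too had its lowest value on 60 min replicate b. Without that array the r of these 2 pairs was -0.13 and -0.41, so their positive relation rested on it. The log2 ratio of Ccl7 to Ccl2 within an array ran from -1.85 on 30 min replicate a to -1.45 on 60 min replicate c, with means of -1.68 ± 0.10, -1.70 ± 0.14 and -1.66 ± 0.18 (SD, n = 3) that overlapped at all 3 times.

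Of the remaining pairs, Cxcl5 and Cxcl12 (160511_at) had a Spearman rho of 0.87 (exact permutation p = 0.00451, adjusted 0.0304) and a Pearson r of 0.63 (exact permutation p = 0.0701, adjusted 0.351). The r was 0.83 without the 2 arrays furthest from the median of Cxcl5 and 0.51 for the deviations from the mean of each time. Only the brightest Cxcl12 probe set entered the pairs. The other pairs had adjusted p of 0.577 or above by r and 0.880 by rho. The permutations for all pairs ran over the 9 arrays without regard to time, so a shift with time that 2 genes share enters the p-values. Whole arrays share 1 scaling, and its part in these correlations was not tested.

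Cxcl12, the ligand that retains haematopoietic cells in marrow, had 3 probe sets from different source sequences and no call at any time. The probe set 100112_at read 1214, 1141 and 1146 at 0 min, 1023, 1181 and 1101 at 30 min and 1245, 1054 and 1171 at 60 min. The probe set 160511_at read 1194, 1287 and 1128, then 906, 1370 and 1249, then 980.2, 1094 and 1101, so its 60 min arrays all lay below those of 0 min while those of 100112_at overlapped. The dimmest, 162234_f_at, read between 149 and 221, with its lowest value on 60 min replicate b. At 60 min the log2 fold changes were -0.02 (95% interval -0.24 to 0.21), -0.18 (-0.51 to 0.14) and -0.11 (-0.44 to 0.22), with limma adjusted p of 0.936, 0.425 and 0.652. At 30 min they were -0.08, -0.05 and -0.04, with adjusted p from 0.679 to 0.917. By 100112_at, which had the smallest SE of the 3, the 95% interval of the change at 60 min ran from -15.5% to 15.9%.

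Cxcl10, the interferon-induced Cxcr3 ligand, was near the bottom of the intensity scale at every time. Its probe set 93858_at read 14.1, 0.700 and 12.0 at 0 min, 3.10, 8.10 and 13.8 at 30 min and 11.7, 8.70 and 1.70 at 60 min. All 9 values lay below the threshold of 44.69 that at least 3 arrays had to exceed for a test, so Cxcl10 was not tested and no fold change is given. A transcript level below what this probe set resolves cannot be told apart from none.

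**Figure D4:**
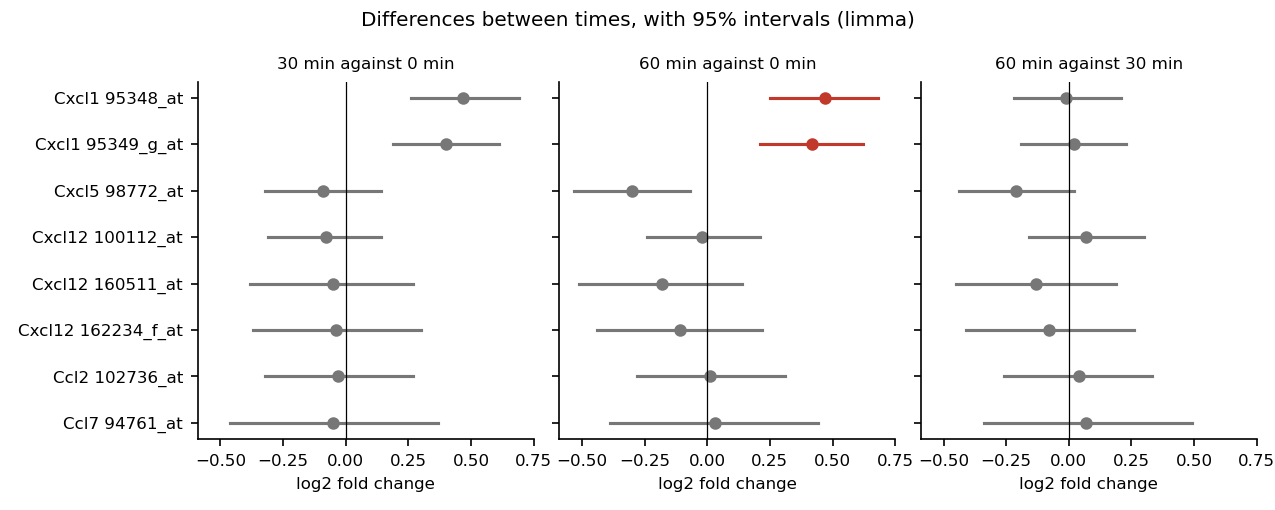
Log2 fold change (points) with its 95% interval from limma for the 8 tested chemokine probe sets in the 3 comparisons; red marks an adjusted p under 0.05. Only the 2 Cxcl1 probe sets at 60 against 0 min are red, the interval of Cxcl5 at 60 min ends at -0.07, and all intervals of Ccl2, Ccl7 and Cxcl12 include 0.

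Between 30 and 60 min no chemokine probe set was called, where 0.0254% of all tested probe sets were. The largest difference was that of Cxcl5, at -0.21 (95% interval -0.44 to 0.02, limma adjusted p = 0.567). All 8 probe sets had overlapping arrays at these 2 times. The share of all tested probe sets with such an overlap is not given here, so this is not read as particular to the chemokines. The 5 tested genes, each by its brightest probe set, had a median log2 fold change of -0.05 at 30 min and 0.01 at 60 min, against 0.05 and 0.03 for all tested probe sets.

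Most receptors of these ligands gave little signal in the cells, with the atypical receptor Ackr3 as an exception. Cxcr2, Cxcr3, Cxcr4 and Ccr2, the receptors named further above for the 6 chemokines, were all too dim to be tested, with mean intensities at 0 min of 15.0 ± 1.71, 39.1 ± 18.3, 5.03 ± 3.25 and 5.50 ± 3.68. Of all tested probe sets 0.939% were called at 30 min, and 4.35% higher and 8.73% lower at 60 min. Of 22 chemokine receptor genes 18 had a probe set and 5 were tested, 0 of which passed at either time. The brightest was Ackr3, an atypical receptor that takes up Cxcl12, at 457 to 495 at 0 min, 482 to 533 at 30 min and 492 to 546 at 60 min, with log2 fold changes of 0.09 and 0.11 (limma adjusted p = 0.645 and 0.511). Cx3cr1, the fractalkine receptor, read 119 ± 9.51 at 0 min, 172 ± 4.62 at 30 min and 155 ± 38.8 at 60 min, with adjusted p of 0.183 and 0.224.

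Among other chemokine ligands Ccl5, which attracts T cells and monocytes, passed the test at 30 min. Its arrays read 132 to 162 at 0 min, 238 to 363 at 30 min and 181 to 237 at 60 min, without overlap between 30 or 60 min and the start. It rose by 0.98 on the log2 scale at 30 min (SE 0.18, limma adjusted p = 0.0360), where 0.482% of all tested probe sets were called higher. At 60 min its fold change was 0.41 (SE 0.18, limma adjusted p = 0.135), and the difference between 60 and 30 min was -0.57 (limma adjusted p = 0.526). The 30 min call was lost when any single 0 min array, 30 min replicate b or c, 60 min replicate c, the filter or the variance trend was left out, with adjusted p from 0.0525 to 0.173. Calls over all tested probe sets at 30 min fell from 74 to 16, 19 and 23 without 0 min replicate a, b and c. Ccl5 was the 1 of 7 tested CC, XC and CX3C ligands called at 30 min, and 0 of the 7 were called at 60 min. Over all tested probe sets 4.35% were called higher and 8.73% lower at 60 min. The membrane-bound Cx3cl1 and the myeloid attractant Ccl9, the brightest of these 7, stood at -0.13 and 0.02 at 30 min and at 0.05 and 0.16 at 60 min. Of the other CXC ligands 4 of the 5 with a probe set were too dim, among them Cxcl2, the neighbour and close relative of Cxcl1, at 6.43 ± 2.47, 15.9 ± 4.91 and 8.20 ± 5.92. Cxcl14 was the 1 tested, with fold changes of 0.02 and 0.20 and adjusted p of 0.967 and 0.507.

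Of 11 tested regulators of NF-kappaB 3 rose at 60 min, 0 fell and 8 did not pass, where 4.35% of all tested probe sets were called higher and 8.73% lower. At 30 min 0 were called, where 0.939% of all tested probe sets were. The list had a median log2 fold change of 0.37 at 60 min against 0.03 for all tested probe sets. Rela, the transactivating subunit, rose by 0.43 (SE 0.08, limma adjusted p = 0.0132), from 2263 ± 50.6 to 3060 ± 110.3. The inhibitors Nfkbia and Nfkbib rose by 0.48 and 0.54 (limma adjusted p = 0.0250 and 0.0409), while the second probe set of Nfkbia stood at 0.14 (0.425). Leaving out any single 0 min array or 60 min replicate c ended the calls of Nfkbia and Nfkbib (limma adjusted p = 0.0673 to 0.127), as did 60 min replicate b, the filter or the variance trend for Nfkbib (0.0580 to 0.0975). Leaving out 0 min replicate a or b ended that of Rela (0.0680 and 0.0655). Calls over all tested probe sets also fell without a 0 min array, as given above for Cxcl1. Rela lies in the bright class whose median moved by 0.25 at 60 min. Its call remained after quantile normalization and cyclic loess, at 0.30 and 0.26 (limma adjusted p = 0.0213 and 0.04).

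Of 9 tested inflammatory genes of stromal cells only Ier3, a survival gene induced early by NF-kappaB and growth factors, rose, by 1.39 at 30 min and 1.06 at 60 min (limma adjusted p = 0.00207 and 0.00731). Over all tested probe sets 0.482% were called higher at 30 min and 4.35% at 60 min. Il6, a cytokine often made with Cxcl1 and Ccl2, was too dim to be tested, at 12.3 ± 0.608, 21.2 ± 12.0 and 16.5 ± 3.97. Of all tested probe sets 0.939% were called at 30 min, and 4.35% higher and 8.73% lower at 60 min. Of 15 tested cytokine receptors and adaptors that act upstream of chemokine genes 0 were called at either time. The brightest were Cd14, a co-receptor of bacterial lipid, with fold changes of 0.10 and 0.27, and the signalling receptor chain Il6st, with -0.35 and -0.40 (limma adjusted p = 0.203 and 0.0716). Their median was -0.15 at 30 min and -0.05 at 60 min.

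Of 12 tested genes for chemokine processing and surface retention 0 were called at 30 min, and 2 fell, 0 rose and 10 did not pass at 60 min. Of all tested probe sets 0.939% were called at 30 min, and 4.35% higher and 8.73% lower at 60 min. These shares are the background for this list and for the 2 lists that follow. The sheddase Adam10 fell by 1.21 on the log2 scale (limma adjusted p = 0.0151) and its second probe set stood at -0.99 (0.0137), and Sdc2, a heparan sulphate proteoglycan, fell by 0.81 (0.0250). The list's median at 60 min was -0.06, against 0.03 for all tested probe sets. Of 10 tested interferon-induced genes that often accompany Cxcl10, 2 were lower at 60 min: Ifit2 fell by 1.64 and Gbp2 fell by 0.66 (limma adjusted p = 0.0142 and 0.0310). Of 7 tested regulators of the decay of AU-rich transcripts 1 fell at 60 min, the translation silencer Tia1 by 0.96 (limma adjusted p = 0.0390). The medians of these 2 lists at 60 min were -0.00 and 0.17. Leaving out any single 0 min array ended the calls of Sdc2, Gbp2 and Tia1 (limma adjusted p = 0.0596 to 0.131), and leaving out replicate a or b of that time ended those of Adam10 and Ifit2 (0.0628 to 0.0680). As given above for Cxcl1, calls over all tested probe sets fell in these fits too. The calls of Gbp2 and Tia1 were also lost without 60 min replicate b (0.0728 and 0.107), without the filter (0.0517 and 0.0697) and after quantile normalization (0.0515 and 0.0518). That of Tia1 was lost in addition without 30 or 60 min replicate c, after cyclic loess and without the variance trend (0.0508 to 0.0578).

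**Figure D5:**
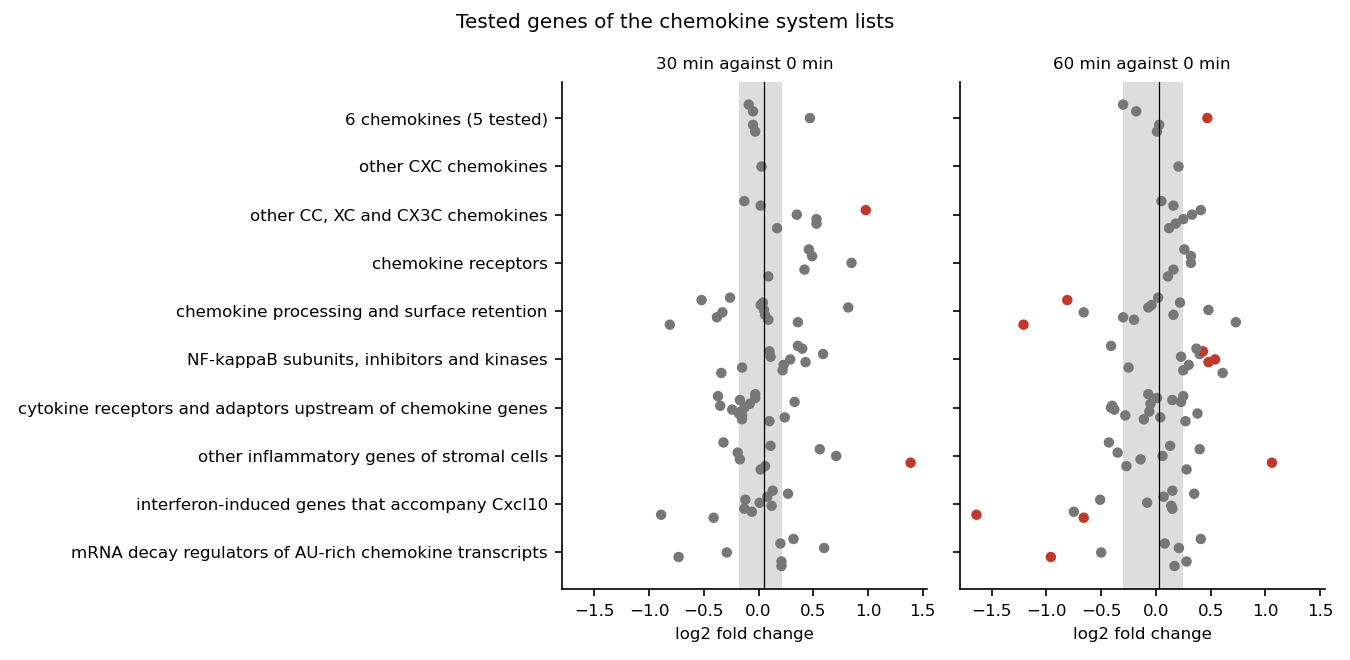
Log2 fold change of each tested gene in the lists around the 6 chemokines at 30 and 60 against 0 min, 1 point per gene by its brightest probe set; red marks a limma adjusted p under 0.05, the line the median and the grey band the interquartile range over all 7884 tested probe sets. Ccl5 and Ier3 are red at 30 min; at 60 min Cxcl1, Ier3 and 3 NF-kappaB genes are red to the right, and 5 genes are red to the left.

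The probe sets whose log2 values over the 9 arrays were most like those of each chemokine were taken by Pearson correlation, as a description over arrays that share their scaling. For Cxcl1 (95348_at) they were Coq4, Rbbp4 and Ei24, with r of 0.96, 0.96 and 0.95. For Cxcl5 they were Tor1aip2, Ifngr1 and Cat, at 0.97, 0.97 and 0.95. For Ccl7 they were Tram1, Adh5 and 4933434E20Rik, at 0.97, 0.95 and 0.95, and for Ccl2 Igkv14-111, Hddc2 and Pbx3, at 0.93, 0.92 and 0.92. For Cxcl12 (160511_at) they were Atp6v0a2, Caml and Hsbp1, at 0.89, 0.87 and 0.87. None of these 15 probe sets was called at 60 against 0 min, where 4.35% of all tested probe sets were called higher and 8.73% lower. None of the 15 belonged to another of the 6 chemokines.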

How the data were processed

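Per the labels, 9 arrays hold total RNA of OB-6 cells at 0, 30 and 60 min of PTH, with 3 arrays per time. The authors deposited 1 linear intensity per probe set and array, between 0.1 and 8605.242; how it was summarised is not given in the sources used here. The deposited intensities have trimmed means (without 2% at each end) of 250.1 to 250.2 and were used as they stand.

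The platform annotation gave 1 symbol to 10833 probe sets, several to 396 and none to 1193; Entrez identifiers of 10817 were found in the RefSeq table, and 0 symbols changed. Values were taken as log2(intensity + 11.8), where 11.8 is the 20th percentile over the matrix. The 7884 probe sets with at least 3 arrays above the 40th percentile (44.69), without 66 control probe sets, were tested. All times entered a single limma model (version 3.58.1, R 4.3.3; trended eBayes; residual degrees of freedom 6, prior 4.68), and p-values were adjusted by Benjamini-Hochberg over all 7884. The fit was tested on simulated data. Figures used matplotlib 3.10.9 in Python 3.11.15.

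The chemokines and lists were chosen with earlier results of these data known, so a list is described by counts and medians beside those of all probe sets. A gene of a list is represented by its brightest probe set. Named are every chemokine probe set; from each list up to 4 called genes with the largest change, or the 2 brightest where none was called; and the 3 most correlated probe sets per chemokine. Receptors of the 6 ligands, Cxcl2, Cx3cl1, Ccl9, Il6 and Pth1r were named outside this rule, after their values were seen. Same-letter replicates had correlations of their deviations from -0.13 to 0.30, and other-letter replicates from -0.27 to 0.18. Between 30 and 60 min the same-letter values were 0.30, 0.25 and 0.02 for a, b and c, and the other-letter values ran from -0.27 to 0.05. The labels do not say whether the letters pair arrays, and these values do not settle it. The letter was therefore left out of the main fit and entered as a term in 1 other setting.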

Additional observations from a re-analysis of the deposited data

How the results depend on the processing

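The count of chemokine probe sets called at 60 against 0 min was 2 in 7 of the 10 other settings. It was 1 after quantile normalization and 1 after cyclic loess (Cxcl5 lower in both), 1 without the variance trend (Cxcl1 by 95348_at), and 0 to 2 with 1 array left out. At 30 against 0 min the 0 became 1 with double the constant, 1 after quantile normalization, 2 in a fit of the 2 groups alone and 0 to 2 with 1 array left out, all of them Cxcl1. With the replicate block, the letter as a term, it was 2 (limma adjusted p = 0.0357 and 0.0389). The labels do not say whether the letters pair arrays.

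Signs turned only for differences that passed no threshold. After quantile normalization and cyclic loess Ccl2 stood at -0.22 and -0.21 at 60 against 0 min and at -0.13 and -0.13 against 30 min, Ccl7 at -0.03 and -0.09 at 60 against 0 min, and Cxcl1 by 95349_g_at at -0.12 and -0.10 against 30 min; the Cxcl12 probe set 162234_f_at stood at 0.00 after quantile normalization. After 75th percentile scaling Cxcl1 by 95348_at stood at 0.05 against 30 min and Cxcl12 by 100112_at at 0.05 at 60 against 0 min. With 1 array left out, the ranges that crossed 0 were, for 30 against 0, 60 against 0 and 60 against 30 min, -0.05 to 0.01, -0.11 to 0.18 and -0.09 to 0.21 for Ccl2 and -0.12 to 0.07, -0.12 to 0.27 and -0.08 to 0.31 for Ccl7. For Cxcl12 they were -0.09 to 0.00, -0.22 to 0.04 and -0.19 to 0.08 by 162234_f_at, -0.17 to 0.12 by 160511_at at 30 min and -0.07 to 0.05 by 100112_at at 60 min. For Cxcl1 at 60 against 30 min they were -0.07 to 0.05 and -0.04 to 0.08 by its 2 probe sets.

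Counts over all tested probe sets moved more. At 30 against 0 min, 74 (38 higher, 36 lower) became 39 without a filter, 142 (52 and 90) after quantile normalization, 101 (40 and 61) after 75th percentile scaling, 92 (32 and 60) after cyclic loess, 389 in a fit of the 2 groups alone, 259 with the replicate block, 40 without the variance trend and 16 to 557 with 1 array left out. At 60 against 0 min, 1031 (343 and 688) became 652 without a filter, 1151 (499 and 652) after 75th percentile scaling, 1446 (492 and 954) with the replicate block and 77 to 1584 with 1 array left out. At 60 against 30 min, 2 became 1 in a fit of the 2 groups alone, 1 with the replicate block and 0 to 5 with 1 array left out. Over the 3 times, 366 became 158 without a filter, 834 with the replicate block, 184 without the variance trend and 18 to 659 with 1 array left out. The cause of these moves was not tested. The differences of the log2 ratio of Cxcl1 to Cxcl5, chosen after seeing the data, stayed within the spread between its arrays in every check but 1. That check was not a processing setting but the use of the second Cxcl1 probe set, which gave 0.49 at 30 min against 0.56 by the first. As said above, the steadiness of this ratio is no evidence for it. Cxcl10 lies below what the signal allows to be tested.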
